A study of Homo sapiens with 28 samples.

Results

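Knockdown (KD) of RBFOX2 was compared with Control in K562 cells, a human chronic myelogenous leukaemia line, by the peaks of N6-methyladenosine (m6A) on chromatin-associated RNA (caRNA). Both groups were stable lines made with lentiviral short hairpin RNA, non-targeting in K562 Control (n = 2 libraries) and directed against RBFOX2 in K562 RBFOX2 KD (n = 2 libraries), and the study's methods grew the KD line in puromycin. Which of the study's hairpins was used for these libraries is not given in the sources used here. Peaks of the 4 immunoprecipitated (IP) libraries on chromosomes 1 to 22 and X were merged where they overlapped on the same strand. This gave 47567 regions from 149465 peaks, out of 14 IP peak lists and 28 samples in the whole series. A lost region had a peak in both Control libraries and in neither KD library, a gained region had the reverse, and a shared region had a peak in all 4. The comparison addresses where m6A on caRNA differs once RBFOX2 is depleted.

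m6A is written co-transcriptionally by a methyltransferase complex built on METTL3 and METTL14, with adaptors such as WTAP, RBM15 and ZC3H13, mostly at adenosines in DRACH context (D is A, G or T, R is A or G, and H is A, C or T). In mature mRNA it lies mostly around the stop codon and in long exons, and caRNA adds introns, promoter-associated transcripts and other nascent RNA. RBFOX2 is an RNA-binding protein best known as a splicing regulator that binds GCAUG in introns, and it also occupies nascent RNA on chromatin.

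The sequences below show high-ranking lost and gained regions where the summit lies in a coding exon or an intron and the window is clear of untranslated regions (UTRs). Each window spans 101 bases centred on the summit, was read from hg38 on the region's own strand and is given in DNA letters, with DRACH matches in capitals. The first set is lost, at SAFB2 (chr19:5622605-5622705, minus strand), AHCTF1 (chr1:246842789-246842889, minus strand) and NDOR1 (chr9:137214178-137214278, plus strand).
SAFB2: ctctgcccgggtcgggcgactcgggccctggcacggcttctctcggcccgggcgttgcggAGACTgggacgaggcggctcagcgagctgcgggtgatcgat
AHCTF1: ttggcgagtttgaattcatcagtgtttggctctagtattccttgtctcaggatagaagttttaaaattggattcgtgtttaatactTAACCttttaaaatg
NDOR1: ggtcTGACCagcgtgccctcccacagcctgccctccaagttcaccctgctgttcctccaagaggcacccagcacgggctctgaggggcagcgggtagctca

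The second set is gained, both with the summit in an intron, at DOCK2 (chr5:169654337-169654437, plus strand) and NFIC (chr19:3453339-3453439, plus strand). The DOCK2 window runs over the splice acceptor into the next exon.
DOCK2: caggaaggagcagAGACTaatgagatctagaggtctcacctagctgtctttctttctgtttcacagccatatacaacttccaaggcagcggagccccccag
NFIC: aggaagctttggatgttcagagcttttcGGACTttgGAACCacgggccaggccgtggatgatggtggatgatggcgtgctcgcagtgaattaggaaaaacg
The lost windows held 1 DRACH match each, and the gained windows held 1 at DOCK2 and 2 at NFIC. GC content ran from 32.7% at AHCTF1 to 73.3% at SAFB2 among the lost windows and was 50.5% at DOCK2 and 52.5% at NFIC. TGCATG, the canonical RBFOX2 motif in DNA letters, was in none of these windows.

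The 4 lists held 36844 and 38468 peaks in Control 1 and 2, and 38576 and 35577 in KD 1 and 2. The depth at which each list was called, recovered from the deposited fold and p-value of the peaks, was 14.8 M and 19.5 M effective reads in Control and 16.4 M and 12.6 M in KD. Control 2 stood apart: 5615 regions were listed only there, against 1597 only in Control 1, 2090 only in KD 1 and 1527 only in KD 2. Over the shared regions, the median absolute difference in rank was 8.04 percentile points between the Control libraries, 5.63 between the KD libraries and 4.78 between Control 1 and KD 1. Of 14 K562 marker genes, 10 or 11 carried a region in each library, against 0 of 10 HepG2 markers. RBFOX2 itself had a single region, in intron 1 (chr22:35949612-35950008, minus strand), at percentile 1.33 and 10.1 in Control and 14.8 and 8.19 in KD. A peak list gives no RNA level, so this region does not measure the knockdown.

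Most regions did not separate the groups. All 4 libraries listed 25266 regions, 3 listed 6056, 2 listed 5416 and a single library listed 10829. Of the 5416 regions in exactly 2 libraries, 826 were lost, 838 were gained and 3752 were in 1 library of each group. The 3752 cover 4 pairs of libraries, whereas lost and gained cover 1 pair each. Neither lost nor gained regions were thus more frequent than the mean of a pair across groups. With 1 library left out and fewer lists that have to agree, the counts ran from 1279 (without KD 2) to 6441 (without Control 1) lost and from 1938 (without Control 2) to 3335 (without Control 1) gained. Lost regions were thus 1.74% and gained regions 1.76% of all regions, which is the background for the shares below. A region missing from a list had no peak at q under 0.01, and may still carry m6A below that threshold. In bulk libraries, fewer cells with a methylated transcript, less of the transcript and less m6A per transcript cannot be told apart.

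Lost and gained regions ranked low in the lists that held them. The percentile of a peak is its rank by -log10 q within its library, where 100 is the strongest. The mean percentile of a lost region had a median of 18.3 (quartiles 10.7 and 27.0), and that of a gained region 17.4 (quartiles 10.5 and 24.7). In both Control libraries, 8 of 826 lost regions ranked above the 50th percentile, and in both KD libraries 1 of 838 gained regions did. Both kinds were narrower than shared regions, with a median width of 249 bases (lost) and 201 bases (gained) against 550. A peak of the other group lay within 500 bases on the same strand for 161 lost (19.5%) and 190 gained (22.7%) regions.

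Lost and gained regions differed in the gene parts they occupied. Of the lost regions 265 were exonic, 178 in promoters and 383 intronic or extragenic, and of the gained regions 119, 78 and 641. Exons, which here include 5' UTRs, coding exons, the 200 bases around stop codons, 3' UTRs and noncoding exons, held 32.1% of lost and 14.2% of gained regions, against 34.1% of all. Promoters, from 1000 bases upstream to 100 bases downstream of a transcript start on either strand, held 21.5% of lost and 9.31% of gained regions, against 16% of all. Introns, antisense transcripts over gene bodies, the 5 kb downstream of genes and intergenic sequence together held 46.4% of lost and 76.5% of gained regions, against 49.9% of all 47567.

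Part by part, every exonic and promoter part and the downstream part held more lost than gained regions, and introns, antisense and intergenic sequence held more gained. Coding exons had 64 lost and 20 gained regions of 4290, or 1.49% and 0.466%. Promoters on the sense strand had 142 lost (2.22%) and 58 gained (0.907%), and stop codons had 70 (1.903%) and 30 (0.816%). The highest lost shares were downstream of genes, with 48 lost (2.99%) and 22 gained (1.37%), and at antisense promoters, with 36 lost (2.96%) and 20 gained (1.65%). Sense introns had 233 lost (1.52%) and 379 gained (2.47%) of 15323. Antisense transcripts over gene bodies had 53 lost (1.89%) and 102 gained (3.64%), and intergenic sequence had 49 lost (1.22%) and 138 gained (3.45%).

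**Figure D1:**
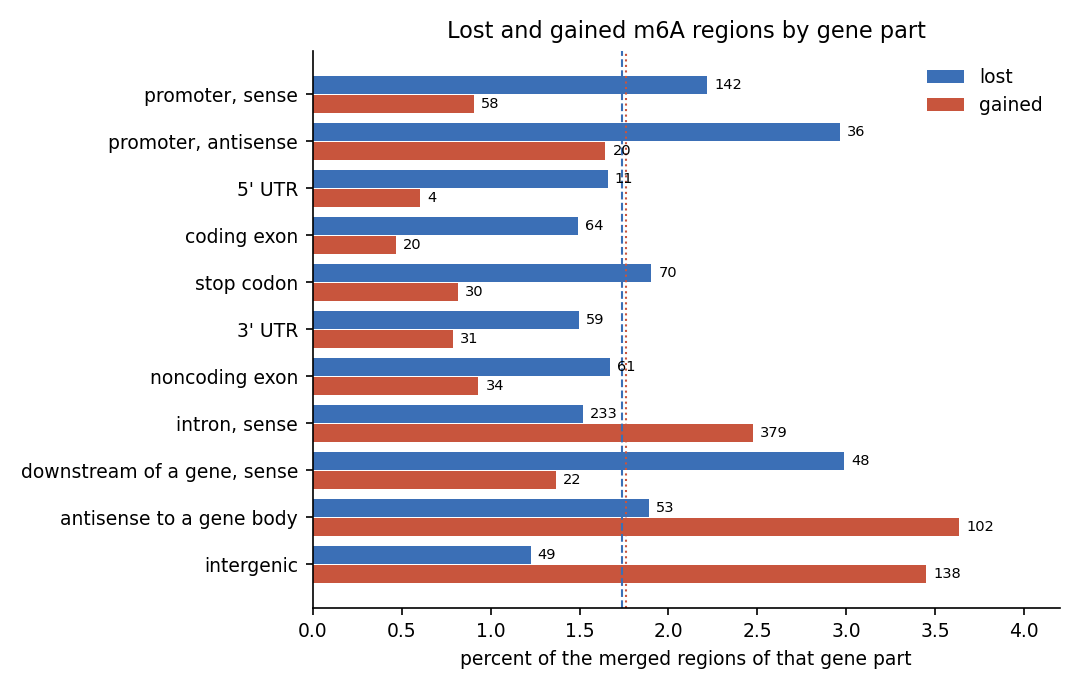
Percent of the merged regions of each gene part that were lost (blue) or gained (red) in KD, with the number of regions at the end of each bar. The dashed blue line and the dotted red line mark the percent lost (1.74%) and gained (1.76%) over all regions. Gained bars pass their line only for introns, antisense transcripts over gene bodies and intergenic sequence.

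The size of this split rested in part on single libraries. Without Control 2, the intronic and extragenic share was 55.2% of lost and 64.0% of gained regions, and without KD 2 it was 48.8% and 65.3%. The exonic share of gained regions was 23.6% without Control 2 and 20.5% without KD 2, and 24.1% when windows around the summits were merged in place of peaks. Their promoter share was 12.4% and 14.2% without the same libraries. Regions listed only in Control 2 were 46.3% intronic or extragenic and 34.3% exonic, and those listed only in KD 2 were 74.3% and 14%, so the libraries of one group differed from each other in the same parts. Control 2 was the deepest list and KD 2 the shallowest. When all 4 lists were cut to the same effective depth, the shares were 46.6% of lost and 76.3% of gained regions. That cut left 47451 of 47567 regions, so the shares could change little. The part of depth in the split was not tested.

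The contrast was also read in whole libraries, as the share of each library's own peaks. These shares come from the same peak lists that define lost and gained regions, so they are not a separate observation of the contrast. Exons held 36.6% and 38.3% of peaks in Control 1 and 2 and 36.1% and 36.0% in KD 1 and 2. Introns and extragenic sequence held 47.8% and 45.3% in Control and 48.5% and 49.1% in KD. The groups did not overlap in either share, and Control 1 lay closer to KD than to Control 2 in both. The difference was -1.38 points for exons (Control 37.4% ± 1.16, KD 36.1% ± 0.0188, SD, n = 2 each) and 2.32 points for introns and extragenic sequence (Control 46.5% ± 1.77, KD 48.8% ± 0.393, SD, n = 2 each). An exact two-sided permutation test gave p = 0.33 for both, and this design of 2 against 2 allows none lower.

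Among the 11 parts taken singly, 8 did not overlap between groups, and each had an exact permutation p of 0.33 (adjusted p 0.458 over 11 tests). KD was lower for sense promoters (13.3% and 14.01% in Control, 12.99% and 12.7% in KD), coding exons, 3' UTRs, noncoding exons and downstream sequence. It was higher for introns (31.2% and 30.8% in Control, 31.8% and 32.0% in KD), antisense transcripts over gene bodies and intergenic sequence (8.08% and 6.63% in Control, 8.30% and 8.60% in KD). With canonical transcripts only, the difference was -0.0682 points for sense promoters (exact permutation p = 0.67), -0.128 for all promoters (exact permutation p = 1) and 0.135 for introns (exact permutation p = 1), so those groups then overlapped, and that of coding exons was -1.20 (exact permutation p = 0.33). Against Control 1 alone the intergenic difference was 0.368 points, and against Control 2 alone it was 1.82. K562 WT libraries, which carried no hairpin, had 34.95% and 35.4% of peaks in exons and 47.4% and 47.0% in introns and extragenic sequence. In the exonic share, WT lay on the far side of KD from Control.

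**Figure D2:**
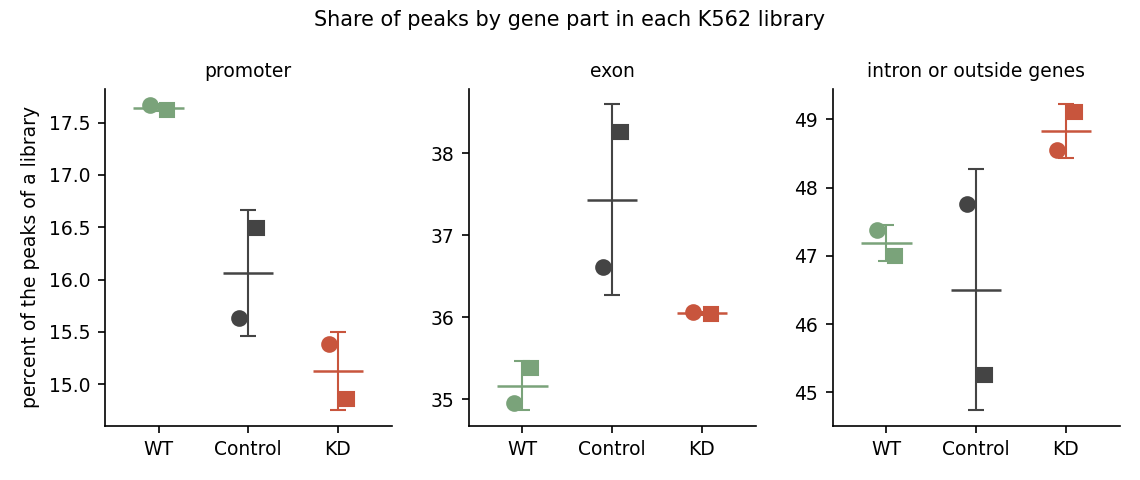
Percent of the peaks of each K562 library that lay in promoters, in exons, and in introns or outside genes (y axes do not start at 0). Circles are replicate 1 and squares replicate 2, with the mean as a line and the SD as error bars. Control 2 is the square that lies farthest from KD in the exon and intron panels, and WT lies below KD for exons.

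Gene types followed the parts. Protein-coding genes held 549 lost regions (66.5% of them) and 410 gained regions (48.9%), against 66.0% of all regions, so the lost share was near that of all regions and the gained share below it. Long noncoding RNA (lncRNA) genes held 92 lost (11.1%) and 139 gained (16.6%), against 13.2% of all. Transcripts antisense to a gene held 74 (8.96%) and 118 (14.1%), against 7.50% of all, and regions with no gene on their strand were 97 (11.7%) and 160 (19.1%), against 11.8% of all. Pseudogenes had 11 lost and 9 gained regions. Without Control 2, protein-coding genes held 60.9% of lost and 56.4% of gained regions. Of each library's peaks, protein-coding genes took 67.1% and 69.3% in Control and 66.5% and 66.3% in KD, again without overlap and again with an exact permutation p of 0.33 (adjusted p 0.40 over 6 types). lncRNA genes took 13.3% and 13% in Control and 13.6% and 13.6% in KD.

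The genes with gained regions were long. Among the 12130 genes with a region on their strand, 615 had a lost region, 505 a gained region and 38 both. Median gene length was 44.2 kb for genes with a lost region, 101.5 kb for genes with a gained region and 31.8 kb for all 12130. These lengths were not matched for the number of regions in a gene. Genes with more regions have more chances to hold a lost or gained one. A shared region was also held by 75.1% of genes with a lost region and 71.3% of genes with a gained region, against 77.3% of all 12130 genes.

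Every chromosome held both lost and gained regions. On chromosomes 16, 17, 19 and 22, a set chosen after the counts were seen, 199 regions were lost and 98 gained of 9190, and the median GC content of the regions there was 55.0%. On chromosomes 4, 13 and X, chosen in the same way, 60 were lost and 117 gained of 4568, with a median GC content of 42.4%. The first set took 24.1% of lost and 11.7% of gained regions, and 22.1% and 14.6% without Control 2. The second took 7.26% and 14%, and 9.57% and 11% without Control 2.

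Base composition separated lost from gained regions even within introns and extragenic sequence. The 151 bases around the summit had a median GC content of 48.3% in the 383 lost and 39.1% in the 641 gained regions there. Shared regions and regions listed in 1 library of each group both had 43.0%. In exons the order was not the same, with 51.7% for lost and 53.0% for gained, and in promoters the values were 57.0% and 59.9%. Without Control 2 the intronic and extragenic medians were 45.7% and 40.4%. Peaks of the 4 libraries as a whole had median GC contents of 47.7% and 48.3% in Control and 47.7% and 47.0% in KD. The part of base composition in the loss and gain of peaks was not tested.

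**Figure D3:**
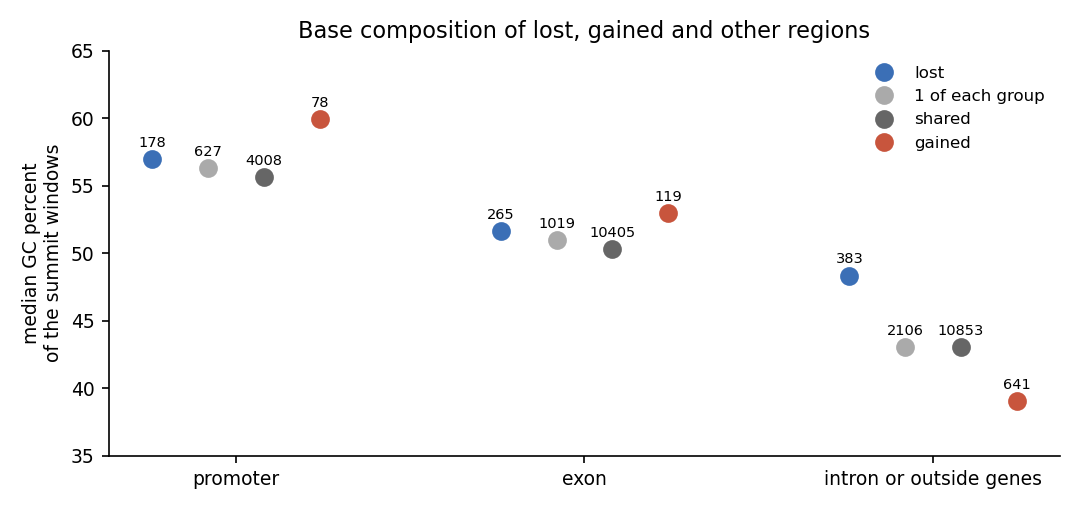
Median GC percent of the 151 bases around the summit for lost, shared and gained regions and for regions listed in 1 library of each group, by gene part, with the number of regions above each point (y axis from 35 to 65). In introns and outside genes, lost regions lie above and gained regions below the 43.0% of the other classes.

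Motifs were searched on the strand of the region within 75 bases of the summit, in DNA letters. DRACH was present in 96.7% of lost, 98.8% of gained and 97.8% of all regions. GGACT, the strongest m6A context, was in 23% of lost, 27.3% of gained and 27.0% of all regions. TGCATG was in 39 lost (4.72%), 27 gained (3.22%) and 3.79% of all regions. AGATG, which the study examined as another RBFOX2 substrate, was in 23% of lost, 16.8% of gained and 21.1% of all regions. The shorter GCATG, which every TGCATG contains and which was added after the others were counted, was in 14.9% of lost, 19.1% of gained and 15% of all regions. Within introns and extragenic sequence the GCATG shares were 15.7% and 22.2%, and the AGATG shares 24.8% and 15.1%. In exons the order was the reverse, with GCATG in 14.3% of lost and 8.40% of gained regions and AGATG in 21.1% and 26.1%. In promoters GCATG was in 14.04% of lost and 10.3% of gained regions and AGATG in 21.9% and 16.7%. No test was run on these shares, which describe regions and not libraries.

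The 10 strongest lost regions all lay in protein-coding genes. The highest was in exon 3 of PPM1F, a serine/threonine phosphatase (chr22:21939582-21939744, minus strand), at percentile 71.3 and 79.0 in Control 1 and 2, with folds over background of 8.04 and 10.2. Both WT libraries listed it too. A region of USP36, a nucleolar deubiquitinase, lay in intron 17 at the start of an alternative transcript (chr17:78799678-78799889) and reached 50.4 and 80.2. SAFB2, a nuclear scaffold attachment factor that binds RNA, lost a region in exon 1 (chr19:5622564-5622762) that stood at 43.4 and 85.7.

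The other 7 of the top 10 were in TBC1D9B, TRIM41, EIF4G1, AHCTF1, GTPBP1, NDOR1 and MYO9B. EIF4G1, the scaffold of the translation initiation complex, held one in intron 16 at the start of an alternative transcript, at 61.2 and 63.2. The region in intron 34 of AHCTF1, which encodes the nuclear pore protein ELYS, stood at 56.3 and 68.0. Those in NDOR1, a diflavin reductase (exon 6), and MYO9B, an unconventional myosin (intron 25), ranked at 44.2 and 78.4 and at 40.5 and 79.0. All 10 ranked higher in Control 2 than in Control 1. Of the 10, 3 were in neither WT library, namely those of EIF4G1, AHCTF1 and MYO9B.

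The strongest gained regions ranked lower than the strongest lost ones. The highest lay in exon 1 of UGGT1, which encodes a glucosyltransferase of glycoprotein quality control (chr2:128091218-128091426, plus strand), 126 bases from the gene start and next to the stop codon of a short transcript. It stood at 63.5 and 61.05 in KD 1 and 2, with folds of 7.80 and 8.55. The next 2 were intergenic, on chromosome 9 (138261691-138261845, plus strand) at 63.0 and 42.2 and on chromosome 15 (51035404-51035642, minus strand) at 47.2 and 57.0. FANCA, a core member of the Fanconi anaemia DNA repair complex, gained a promoter region in intron 1 at 61.3 and 42.2.

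SNRPD2, an Sm core protein of spliceosomal ribonucleoproteins, gained a region in exon 2 (chr19:45688096-45688613) at 46.7 and 54.1. Intronic gains were those of FAF1, a Fas-associated ubiquitin-binding protein (41.4 and 57.7), DOCK2, a Rac activator of blood cells (45.5 and 50.3), SPIDR, a homologous recombination scaffold (44.4 and 49.5), and NFIC, a nuclear factor I transcription factor (44.3 and 46.7). The lncRNA ENSG00000289372 gained a region at its promoter, at 43.2 and 48.6. Of the 10, 8 were in both WT libraries, against 38.4% of all gained, 36.0% of all lost and 88.5% of shared regions. Most of these 10 were thus peaks of unmodified K562 cells that the Control lists lacked. Among the 10 strongest lost regions, those of PPM1F, SAFB2 and GTPBP1 were in both WT libraries.

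**Figure D4:**
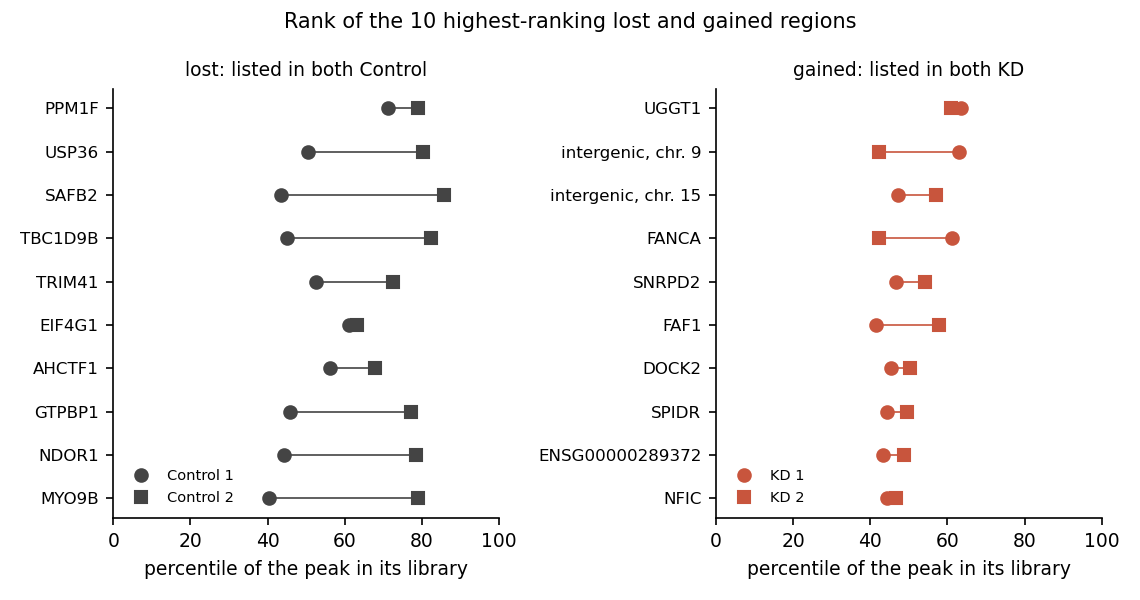
Percentile of the peak in each library that listed it, for the 10 lost regions (left, Control 1 as circles and Control 2 as squares) and 10 gained regions (right, KD 1 and KD 2) with the highest mean. Every lost region ranks higher in Control 2, and the lost region of PPM1F is the only one above 70 in both libraries.

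Outside these, the highest-ranking lost regions of the remaining parts were also modest. A 5' UTR of an alternative transcript of PCYT2, an enzyme of phosphatidylethanolamine synthesis, stood at 16.9 and 76.4, and the stop codon of LSM12 at 36.2 and 56.4. ZSCAN12, a zinc finger gene, lost a 3' UTR region at 55.7 and 58.4. Downstream of MNX1, a homeobox gene, the lost region stood at 40.6 and 44.3, antisense to the ZNF614 promoter at 41.1 and 44.7, and antisense to KLHL20 at 4.02 and 71.1. The highest lost intergenic region (chr16:16730866-16731025) stood at 52.0 and 39.8, and the highest in a lncRNA, in intron 3 of WARS2-AS1, at 28.8 and 76.6. Several of these, those of PCYT2, KLHL20 and WARS2-AS1 above all, ranked high in Control 2 alone.

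Among gained regions of the remaining parts, the 3' UTR of SP100, a nuclear body protein, stood at 30.4 and 49.7 in KD, and the 5' UTR of EPHB6, a kinase-defective ephrin receptor, at 32.3 and 30.7. A noncoding exon of the lncRNA ENSG00000276131 stood at 45.3 and 43.8. Antisense regions were gained at the promoter of PPP1R16A (37.4 and 40.0) and over ZNF215 (40.8 and 43.8), and one was gained downstream of SALRNA3 (35.2 and 34.3). Both KD libraries gave these regions similar ranks, apart from that of SP100.

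No gene lost more than 2 regions, and none gained more than 3. The 25 genes with 2 lost regions include, in alphabetical order, ADAMTS6, C1orf35, DIPK2A, DLEU1 and DNAJC9. C1orf35 had 4 regions in each Control library and 2 in each KD library, and its lost regions, in exon 3 and intron 5, stood at 13.4 and 8.76 and at 11.9 and 42.8. DNAJC9, a histone chaperone with a J domain, had 5 and 6 regions in Control and 3 and 3 in KD. DLEU1, a lncRNA gene deleted in lymphocytic leukaemia, had 27 and 30 regions in Control and 27 and 25 in KD, so the groups met there.

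The most gained regions were in long transcripts. LINC00534, MIR3171HG, XACT and ZC3H12B each gained 3, and ATR gained 2, among 47 genes that gained at least 2. The lncRNA XACT, which coats active X chromosomes in early human development, had 17 and 14 regions in Control and 21 and 19 in KD. It lost 1 region as well. LINC00534 had 30 and 31 regions in Control and 35 and 33 in KD. ATR, the DNA damage checkpoint kinase, had 4 and 6 regions in Control and 7 and 7 in KD, and its gained regions were in introns 21 and 36. Most of these gained regions were weak: the 3 of XACT ranked between 1.93 and 18.3. Both WT libraries listed every gained region of LINC00534, MIR3171HG and XACT, against 38.4% of all gained regions. Those were thus peaks of unmodified K562 cells that the Control lists lacked. The gained regions of ATR and most of those of ZC3H12B were in neither WT library.

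A gene could also appear or disappear as a whole. Of the 12130 genes with a region on their strand, 129 were listed in both Control libraries and neither KD library (90 protein-coding, 30 lncRNA). The reverse held for 101 genes (67 protein-coding, 32 lncRNA). The strongest of them, named after their values were seen, were APOBEC3B, a cytidine deaminase, with a lost region in intron 2 (chr22:38984152-38984422) at 53.2 and 64.5, and CAD, the multifunctional enzyme of pyrimidine synthesis, at 55.8 and 53.7. COX6A1, a subunit of cytochrome c oxidase, was listed at 8.18 and 73.3. Among genes listed only in KD, SLC4A4, a bicarbonate cotransporter, stood at 47.6 and 40.6 and CLEC3B, which encodes tetranectin, at 30.4 and 43.4.

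The 25266 shared regions were compared by rank. With limma on the normal scores of the ranks, 0% passed an adjusted p of 0.05 (0 regions called, smallest adjusted p 0.999). An unadjusted p under 0.05 was reached by 817 regions (3.23%). Without Control 1 the same fit called 965 regions, 760 higher and 205 lower in KD, and without any other library it called 0. With 1 Control library left, that fit assumes that the lone library varies like the KD libraries, and Control 2 is the one that stood apart. Both KD percentiles lay below both Control percentiles in 16.7% of shared regions and above them in 13.4%. If group labels carried no information, such a separation in either direction would occur with a probability of 0.33 for 2 against 2 libraries. The sum of both shares lies below that, so a lack of overlap alone does not mark a region as different. The median change was -0.492 points.

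The direction of the rank differences followed the gene part, as it did for lost and gained regions. The median change was -1.17 points for coding exons, -0.791 for stop codons, -1.02 for 3' UTRs, -1.37 for noncoding exons and -0.920 for sense promoters. It was 0.965 for introns, 1.38 for intergenic regions and 0.418 for antisense transcripts over gene bodies. Of coding exon regions, 21.8% were lower and 7.18% higher in KD without overlap, and of intronic regions 13.1% were lower and 19.5% higher. Against Control 1 alone the medians kept their signs but shrank to -0.336 for coding exons and 0.572 for introns. Against Control 2 alone they were -2.58 and 0.0263. Antisense transcripts over gene bodies had 0.885 against Control 1 alone and -1.34 against Control 2 alone, and introns and extragenic sequence together had 0.540 and -0.150, so the sign there rested on the Control library.

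**Figure D5:**
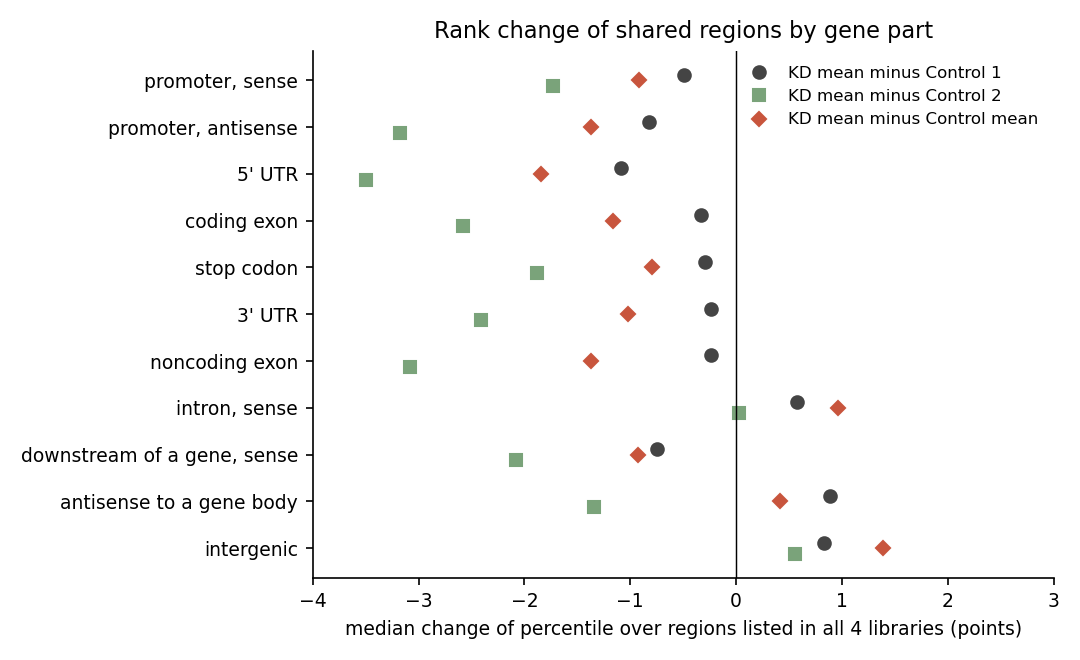
Median change of percentile in KD over regions listed in all 4 libraries, by gene part, against the mean of both Control libraries (diamonds), Control 1 alone (circles) and Control 2 alone (squares). Exonic and promoter parts lie left of 0 under all 3, and introns and intergenic regions right of 0. Antisense transcripts over gene bodies lie right of 0 against Control 1 (0.885) and left of it against Control 2 (-1.34).

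None of the regions named next passed the test, and all had an adjusted p of 0.999 by limma. They are the largest differences among shared regions whose groups did not overlap. In exon 4 of CENPJ, a centriole assembly gene, percentiles were 16.4 and 87.2 in Control and 0.135 and 0.0534 in KD. Control 1 and Control 2 lay far apart there. In exon 23 of KDM5A, a histone H3K4 demethylase, they were 37.1 and 60.2 in Control and 2.74 and 3.31 in KD. In exon 19 of PBRM1, a subunit of the PBAF chromatin remodeller, they were 61.7 and 71.4 in Control and 13.7 and 32.8 in KD. For KDM5A and PBRM1 both Control libraries ranked the region well above both KD libraries, which is how the regions were picked.

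UBN1, a subunit of the HIRA histone chaperone complex, had 52.1 and 84.8 in Control and 23.3 and 12.1 in KD, in intron 10 at an alternative start. LONP2, a peroxisomal protease, had 65 and 51.1 in Control and 1.46 and 15.3 in KD, in intron 12. The other lower regions were in AKAP8L, CACTIN, CC2D1B, DYNC2I1 and SAE1. Of the 10, 4 lay in coding exons, 4 at alternative transcript starts, 1 at a stop codon and 1, that of LONP2, in an intron.

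The regions higher in KD were mostly intronic or intergenic. In intron 5 of NF1, the neurofibromin gene whose product restrains Ras, percentiles were 2.30 and 12.8 in Control and 53.5 and 57.8 in KD, at an alternative transcript start (chr17:31180503-31181042). In intron 2 of EXD3 they were 8.83 and 32.1 in Control and 58.1 and 62.3 in KD. In intron 3 of the lncRNA LINC01088 they were 3.60 and 1.82 in Control and 33.3 and 53.1 in KD. For NF1 and EXD3 the KD libraries lay within 5 points of each other, and for LINC01088 they did not.

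For the remaining 7, Control 2 ranked far below Control 1. CEP85L, a centrosomal protein gene, had 28.5 and 0.183 in Control and 53.3 and 59.7 in KD in intron 4. ZBTB11-AS1 had 32.8 and 6.49 in Control and 65.05 and 54.4 in KD. TMEM38B, a channel of the endoplasmic reticulum, had 44.4 and 10.6 in Control and 68.8 and 65.3 in KD. The others were the lncRNA ENSG00000253377, a region antisense to JRKL and 2 intergenic regions on chromosome 3 (starting at 112919230 and 191734727). Of the 10 higher regions, 9 were listed in at least 1 WT library, and of all shared regions only 7.09% were in neither. Among the lower regions, those of CENPJ and CC2D1B were in neither WT library.

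The gene lists are read against the 1.74% of regions lost and 1.76% gained over all genes. Over all shared regions, 16.7% were lower and 13.4% higher in KD without overlap, which is the background for those counts. All 9 genes of a list that holds METTL16 beside genes of the methyltransferase complex were listed in all 4 libraries. Of their 36 regions, 1 was lost and 0 gained. The lost region was in the 3' UTR of METTL14, the RNA-binding partner of METTL3, at 50.1 and 30.6 in Control. It lay within 500 bases of a shared region at the METTL14 stop codon (82.4 and 91.6 in Control, 84.5 and 68.5 in KD). Of the 21 shared regions of this list, 4 were lower and 1 higher in KD without overlap. The top region of METTL3, the catalytic subunit, stood at 87.7 and 83.6 in Control and 87.8 and 81.9 in KD, and that of WTAP at 96.4 and 93.7 against 93.3 and 92.4. The top region of RBM15, an adaptor of the complex, lay in exon 1. It stood at 98.7 and 99.2 in Control and 97.2 and 99.1 in KD, so the groups overlapped. A weaker region in intron 1 of RBM15 stood at 62.7 and 64.7 in Control and 54.6 and 31.5 in KD. METTL3, WTAP and RBM15 were named after their values were seen. Of 13 readers and erasers, 12 were listed in all 4 libraries, 0 of 52 regions were lost and 1 was gained, in the 3' UTR of HNRNPA2B1 (17.6 and 15.9 in KD). Their shared regions were split 4 lower (13.3%) to 3 higher (10%).

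Polycomb repressive complex 2, which methylates histone H3 at lysine 27, had 29 regions in 9 of 12 genes. Of these, 1 was lost, in exon 2 of PHF19 (27.7 and 35.9 in Control). Another 1 was gained, in exon 10 of the catalytic subunit EZH2 at an alternative start (9.65 and 20.3 in KD). Both WT libraries listed the PHF19 region and the EZH2 region. Genes of TGF-beta signalling had 56 regions, with 1 lost in intron 1 of SKI, a SMAD corepressor (37.3 and 34.6 in Control), and 1 gained in exon 1 of the ligand TGFB3 (28.7 and 9.60 in KD). Their 28 shared regions had the largest median change of the 10 lists, -2.74 points, with 9 lower (32.1%) and 6 higher (21.4%) without overlap. Both shares lay above the 16.7% and 13.4% of all shared regions, so the list had no single direction. The promoter region of TGFB1, a gene the study singles out, was named after its values were seen. It stood at 94.7 and 95.3 in Control and 95.5 and 89.8 in KD, so the groups overlapped. The paper reports less m6A at the TGFB1 promoter after RBFOX2 depletion. A rank within a peak list is a different measure from an m6A level, so these ranks do not test that report. Weaker shared regions of TGFB1 differed without overlap in both directions.

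The list of the RBFOX family and RBFOX2-dependent exons had 41 regions in 12 of 18 genes, with 1 lost in exon 2 of KIF21A, a kinesin gene (15.3 and 13.2 in Control), and 0 gained. Its 26 shared regions were 4 lower (15.4%) and 6 higher (23.1%), with a median change of 1.44 points. Of 32 regions in SR and hnRNP genes, 0 were lost and 0 gained. The top region of HNRNPF stood at 97.5 and 96.1 in Control and 93.7 and 97.1 in KD, that of HNRNPR at 89.8 and 85.1 against 84.0 and 91.25, and that of HNRNPDL at 86.3 and 81.7 against 89.2 and 83.2. The groups overlapped in all 3.

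Nuclear lncRNAs had 0 lost and 0 gained of 52 regions. NORAD stood at 98.7 and 99.5 in Control and 99.7 and 99.4 in KD, FTX, a lncRNA of the X-inactivation centre, at 92.0 and 95.2 against 95.6 and 91.1, and PVT1 at 93.4 and 90.2 against 95.2 and 93.2. All 3 ranked near the top in every library.

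Of the lineage lists, erythroid genes had 80 regions, of which 3 were lost (3.75%) and 1 gained (1.25%). GATA1, the master regulator of the erythroid and megakaryocytic lineages, lost a region in exon 3 (chrX:48791838-48792380) that stood at 4.50 and 45.5 in Control. ZFPM1, which encodes its cofactor FOG1, lost one in exon 7 at 41.9 and 27.1, and SPTB, which encodes beta-spectrin, lost one at an alternative start in exon 2 at 19.96 and 46.7. ANK1, which encodes ankyrin, gained one in intron 31 at 9.67 and 27.6 in KD. In exon 6 of GATA1, percentiles were 77.6 and 59.8 in Control and 58.0 and 59.0 in KD.

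Megakaryocyte genes had 23 regions with 0 lost and 1 gained, in intron 2 of ETV6 (12.7 and 2.92 in KD). Of 69 regions in leukaemia genes, 2 were lost and 2 gained. STAT5A, a transcription factor downstream of BCR-ABL1, lost one in intron 9 at an alternative start (49.3 and 38.5 in Control), and BCR lost one in intron 4 (3.86 and 15.8). SOCS2, a feedback inhibitor of STAT5 signalling, gained one in exon 1 (31.4 and 14.9 in KD), and EZH2 is on this list too. In intron 6 of ABL1, named after its values were seen, a shared region stood at 55.8 and 52.6 in Control and 24.5 and 23.3 in KD. No region of any of the 10 lists passed the limma test.

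Libraries that had no part in choosing the regions were read next. K562 WT 1 and 2 listed 45.8% (95% Wilson interval 42.4 to 49.2) and 45.2% (41.8 to 48.6) of lost regions, and 45.3% (42.0 to 48.7) and 44.2% (40.8 to 47.5) of gained regions. Regions in 1 library of each group were listed at 47.8% ± 0.603 and shared regions at 90.7% ± 0.227 (SD, n = 2 WT libraries). Without Control 2, WT 1 and 2 listed 38.1% and 37.1% of lost and 54.1% and 53.7% of gained regions. The intervals cover counting error only.

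By part, both WT libraries listed 40% of lost and 53.8% of gained exonic regions, 40.4% and 55.1% of promoter regions, and 31.1% and 33.5% of intronic and extragenic regions. Gained exonic regions were 119 and lost ones 265, so the first share rests on fewer regions.

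NB4, an acute promyelocytic leukaemia line, and HepG2, a hepatoma line, listed lost regions more often than gained ones in each of their libraries. NB4 Control listed 17.8% ± 1.88 of lost and 12.2% ± 1.07 of gained regions (SD, n = 3), and HepG2 WT 16.4% ± 4.02 and 9.37% ± 1.27 (SD, n = 2). NB4 RBFOX2 KD, made with a hairpin against the same gene, listed 23.1% ± 0.806 of the regions lost in K562 and 17.8% ± 1.02 of those gained (SD, n = 3). All of these shares lay below the 51.5% ± 1.85 at which NB4 Control listed shared regions. NB4 RBFOX2 KD listed more of every class of region than NB4 Control did. It listed 57.1% ± 1.25 of shared regions, and 39.4% ± 1.07 of all regions against 34.5% ± 1.58 (SD, n = 3 each).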

How the data were processed

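Chromatin-associated RNA was depleted of rRNA, immunoprecipitated for m6A with the EpiMark kit and made into libraries with the SMARTer Stranded kit. Per the methods and processing notes, the authors trimmed reads with Trimmomatic 0.39, aligned them with HISAT2 2.1.0 to hg38 and GENCODE release 29, split strands with samtools 1.9 and called peaks for each library and strand with MACS version 2 (reads extended to 150 bases, up to 5 duplicates, genome size 1.3e+08, q under 0.01). The deposited lists give, per peak, a fold over background (a ratio), a -log10 p-value, a -log10 q-value and a score equal to the integer part of 10 times the last. They hold no read counts. The input libraries are not analysed here.

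Peaks of the 4 lists were merged by strand and ranked within each list by -log10 q. The summit of the highest-ranking peak placed a region in 1 of 11 gene parts with GENCODE release 44 on hg38, and 0 of 495694 peaks ran past a chromosome end. Effective reads were recovered by solving the fold and Poisson p-value of MACS for pileup and local mean. Rank changes were tested with limma 3.58.1 in R 4.3.3 with Benjamini-Hochberg adjustment, and library shares with exact two-sided permutation tests. Python 3.11.15, numpy 2.4.6, pandas 2.3.3, scipy 1.17.1 and pysam 0.24.0 were used, and the scripts were tested on simulated data. The methods call replicates biological without saying whether the 2 libraries of a group came from separate cultures, so p-values measure the spread between these libraries.

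Named regions were the 10 lost and 10 gained with the highest mean percentile, the 10 shared in each direction with the largest change among those without overlap, the highest of each part and of the protein-coding and lncRNA types, the 5 genes with most lost and most gained regions (ties by symbol), RBFOX2, and genes of the 10 lists with a lost or gained region, or else the top 3 by rank. Regions, lists and rules were chosen with earlier results of these data known. The sequence of 1 further gained region is not reported here.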

Additional observations from a re-analysis of the deposited data

How the results depend on the processing

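The lists cover 2 libraries a group, so no permutation test can pass 0.05, and a missing peak is not measured absence. The 826 lost and 838 gained regions were 819 and 823 at -log10 q of at least 5, 788 and 833 with equal list sizes, 818 and 841 at matched depth, and 665 and 648 with no peak of the other group within 500 bases. Merging summit windows gave 1170 lost and 1389 gained, of which 24.1% of gained were exonic and 65.2% intronic or extragenic. Leaving out 1 library gave 1279 to 6441 lost and 1938 to 3335 gained, since fewer libraries then have to agree. The intronic and extragenic share ran from 46.3% to 55.2% of lost and from 64.0% to 79.9% of gained regions, the exonic share from 26.2% to 34.0% and from 11.2% to 23.6%, and the promoter share from 18.7% to 20.2% and from 8.85% to 14.2%. Regions called by limma ran from 0 to 965, the latter without Control 1, and the cause was not tested.

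Differences in share changed sign for stop codons with canonical transcripts (0.0388 points). With 1 library left out they also did for antisense promoters (-0.239 to 0.000468 points), 5' UTRs (-0.128 to 0.0104, and 0.00762 without Control 2) and pseudogenes (-0.0428 to 0.00116). Leaving out Control 2, an alternative chosen after seeing the data like those for GC content, gene type and chromosome, put the share of lost regions in WT 1 and 2 at 38.1% and 37.1% and of gained at 54.1% and 53.7%. Motif shares grew with the window. Within 150 bases of the summit, lost and gained regions held DRACH at 99.6% and 99.6%, GGACT at 37.9% and 41.1%, TGCATG at 8.47% and 6.21% and AGATG at 39.1% and 37.4%. Over the whole region, lost regions held DRACH at 99.0%, and lost and gained held GGACT at 35.8% and 36.5%, TGCATG at 8.23% and 5.01% and AGATG at 33.5% and 25.5%.

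With the replicate number as a block, limma again called 0 regions (smallest adjusted p 0.0798), and the share differences were the same by construction. Same-numbered libraries did not deviate together (correlation -0.079 over 25266 shared regions), so the numbers were not taken as a pairing.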
